A study of Mus musculus with 10 samples.

Results

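The unfolded protein response and the integrated stress response were followed through 35 genes, chosen by name with earlier results of these data known. They comprise 14 chaperones and folding enzymes of the endoplasmic reticulum (ER), 7 genes of ER-associated degradation, the sensors Atf6, Ern1 and Eif2ak3 with Xbp1, and Atf4 with 9 of its targets. All 35 were measured in both tables of the study, among 19048 genes that both tables hold, and all 35 were among the 12485 genes tested. KLF13 KO (KO1 to KO5, n = 5) was set against WT (WT1 to WT5, n = 5), all from male Balb/C mice of 12 weeks that the labels number as separate mice. KLF13 is a zinc-finger transcription factor of T cells. CD3+ T cells of the spleen were activated for 4 days with antibodies to CD3 (coated on the plate) and CD28 (in solution), and the medium of every sample held 2-mercaptoethanol, a reducing agent. Neither the KLF13 allele nor the cells in which it is deleted are given in the sources used here. Total RNA was measured on Affymetrix arrays, and in such bulk RNA fewer cells of a type and less RNA per cell cannot be told apart.

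Proteins that enter the secretory route are folded in the ER by chaperones. When unfolded proteins build up there, the membrane sensors ATF6, IRE1 (gene Ern1) and PERK (gene Eif2ak3) set off the unfolded protein response. ATF6 and the spliced form of XBP1 switch on chaperone and degradation genes, while PERK phosphorylates eIF2alpha, which slows translation in general and favours that of ATF4. Other eIF2alpha kinases, which sense amino acid shortage, haem shortage or double-stranded RNA, reach ATF4 without the ER, and this wider route is the integrated stress response. In lymphocytes the pathway is best known from plasma cells, which need Xbp1 to secrete antibody, and activated T cells also raise ER folding capacity as they grow and make cytokines.

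The arrays fell into 3 scale sets, and every difference was taken within a set. Replicate 1 of each genotype formed set 1, replicates 2 and 3 formed set 2, both from an exon-level table, and replicates 4 and 5 formed set 3, a gene-level table. Klf13 itself read 5.41, 6.16, 6.07, 6.21 and 6.46 in KO1 to KO5 and 6.03, 6.95, 6.89, 7.21 and 7.54 in WT1 to WT5 on the log2 scale, lower in each KO array than in the WT arrays of its set. It fell by 0.86 ± 0.12 over all sets (SE, 5 arrays each, limma adjusted p = 0.0126), with an adjusted p of 0.0507 to 0.0689 when WT2, WT3, WT4, KO4 or KO5 was left out. Array KO3 stood apart, with an interquartile range of 3.10 log2 units where its companions in the exon-level table had 3.43 to 3.56, so differences without it are given as well. Set 2 also differed by brightness. Its difference had a median of -0.79 over the 625 brightest tested genes, against -0.22 over all 12485, while in set 3 these medians were -0.07 and -0.01. The 11 T cell markers tested, Cd3e and Lck among them, averaged 9.14 to 9.84 in the KO arrays and 9.41 to 10.46 in the WT arrays. Their median differences were -0.31, -0.67 and 0.05 in sets 1 to 3, and none passed the threshold (smallest p for Cd3g, -0.89 ± 0.26, limma adjusted p = 0.190). The mean over the B and plasma cell markers measured was 3.89 to 5.56 in KO arrays and 3.73 to 5.67 in WT arrays, each under the median of all probe sets of its array.

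The promoters of the members hold different elements in the branches of the response. RefSeq windows (GRCm38.p6, 250 bases before to 50 after the gene's start) were at hand for 31 of the 35 members. The ER stress response element, which ATF6 binds together with the CCAAT-binding factor NF-Y, was searched on both strands as CCAAT and CCACG with any 9 bases between them. It stands in 0.119% of all 32851 promoters, in 7 of 12 chaperone promoters (Hspa5, Hsp90b1, Pdia6, Calr, Canx, Dnajc3 and Creld2), in those of Syvn1 and Derl3, and in none of the 10 of the ATF4 group. The C/EBP-ATF response element, the composite site of ATF4, was searched as TTNCATCA. It stands in 3.97% of all promoters, in 5 of the 10 of the ATF4 group (Atf3, Trib3, Chac1, Asns and Nupr1), in that of Herpud1 and in none of the 12 of chaperones. Of the other elements searched, the second ER stress response element (0.0365% of all promoters) stood in the windows of Dnajb11 and Herpud1, and TGACGTGG, the core bound by XBP1 (0.676%), in none of the members. The windows of 6 members are shown because they hold these elements in genes on which the comparison of the branches turns or, for Chac1, in a gene of the ATF4 group that differed little. Each line gives the 220 bases before the start, 5′ to 3′ on the gene's strand, with matches in capitals. The positions are chr2:34771870-34772089 (plus strand), chr10:86705445-86705664 (minus), chr12:17266369-17266588 (plus), chr11:50325674-50325893 (minus), chr6:7693210-7693429 (minus) and chr2:119351022-119351241 (plus).
Hspa5: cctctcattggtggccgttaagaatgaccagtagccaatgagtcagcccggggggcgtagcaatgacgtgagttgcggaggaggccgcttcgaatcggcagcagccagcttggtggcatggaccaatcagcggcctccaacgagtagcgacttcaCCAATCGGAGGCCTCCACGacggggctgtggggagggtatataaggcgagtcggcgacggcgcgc
Hsp90b1: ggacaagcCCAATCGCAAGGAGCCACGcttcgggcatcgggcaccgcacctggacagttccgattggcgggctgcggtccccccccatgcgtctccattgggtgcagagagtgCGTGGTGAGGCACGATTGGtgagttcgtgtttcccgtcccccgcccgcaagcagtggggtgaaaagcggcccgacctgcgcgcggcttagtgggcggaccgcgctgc
Pdia6: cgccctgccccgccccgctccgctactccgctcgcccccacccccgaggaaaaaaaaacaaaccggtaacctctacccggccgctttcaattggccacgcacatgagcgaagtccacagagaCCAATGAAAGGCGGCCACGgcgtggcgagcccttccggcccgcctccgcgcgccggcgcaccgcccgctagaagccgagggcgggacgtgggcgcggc
Canx: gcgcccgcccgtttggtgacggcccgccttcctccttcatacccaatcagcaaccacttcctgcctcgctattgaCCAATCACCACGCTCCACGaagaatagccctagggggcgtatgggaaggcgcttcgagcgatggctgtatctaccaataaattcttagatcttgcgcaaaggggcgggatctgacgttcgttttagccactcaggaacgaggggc
Asns: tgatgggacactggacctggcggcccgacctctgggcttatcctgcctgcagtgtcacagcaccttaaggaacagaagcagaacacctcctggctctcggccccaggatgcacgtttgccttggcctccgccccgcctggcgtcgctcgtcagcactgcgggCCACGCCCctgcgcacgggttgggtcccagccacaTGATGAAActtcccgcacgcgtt
Chac1: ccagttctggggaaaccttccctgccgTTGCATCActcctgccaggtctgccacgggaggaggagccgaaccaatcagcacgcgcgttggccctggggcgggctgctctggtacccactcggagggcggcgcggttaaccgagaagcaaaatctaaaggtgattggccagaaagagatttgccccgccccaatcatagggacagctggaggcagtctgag
The capitals in the first 4 lines are ER stress response elements, of which Hsp90b1 has a pair, 1 on each strand. In Asns the second run of capitals, and in Chac1 the only run, is the ATF4 element. The first run in Asns is CCACGCCC, a GC-rich letter string of the kind bound by KLF and SP factors, found in 5.33% of all promoters and in 5 of the 31 windows (Dnajc3, Edem1, Ern1, Asns and Ddit4). These are matches of letters and not measured binding sites.

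ER chaperones had the lowest median difference of the 4 groups over all 10 arrays, just under that of the sensors (-0.34), and none of the 14 passed the threshold. All 14 differences were below 0 (13 of 14 after quantile normalization). Their median was -0.36 log2 units, against -0.10 over all genes tested and -0.39 over the brightest 5%. At an unadjusted p under 0.05 there were 8 of 14, all lower in KO, against 12.8% of all genes lower at that level. Over all groups 12 members reached that level, all lower in KO (14.9% of all genes in either direction). Under limma with Benjamini-Hochberg adjustment 0 of the 35 members were called, where 73 of 12485 genes were (0.585%), 61 of them lower in KO (0.489%).

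Pdia6, a protein disulfide isomerase, came nearest to the threshold. It read 9.28, 10.23, 9.99, 9.16 and 9.53 in KO1 to KO5 and 9.63, 10.81, 10.92, 10.02 and 9.92 in WT1 to WT5. Each KO array was below every WT array of its set, and sets 1 to 3 gave -0.35, -0.75 and -0.62. The fold was 0.65, or -0.62 ± 0.12 log2 units (SE, 5 arrays each, limma adjusted p = 0.0541).

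Hspa5 encodes BiP, the Hsp70 chaperone that holds the sensors inactive until unfolded protein draws it away. Its signal was 9.76, 10.29, 10.81, 10.30 and 10.43 in KO1 to KO5 and 10.15, 11.98, 12.05, 10.79 and 10.62 in WT1 to WT5. The groups did not overlap in any set, but the size differed among them, at -0.39, -1.46 and -0.34. Over all arrays the difference was -0.80 ± 0.20 (SE, adjusted p = 0.140), the lowest of the 35 members. Of its 10 exon-level probe sets 7 were lower in KO in both set 1 and set 2, against 29.9% of all probe sets.

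Hsp90b1, the ER form of Hsp90 (GRP94), read 10.16, 10.86, 10.75, 10.06 and 10.39 in KO1 to KO5 and 10.50, 11.99, 12.02, 10.51 and 10.39 in WT1 to WT5. KO5 was under WT5 by less than the last digit printed, and the difference over all arrays was -0.64 ± 0.17 (SE, adjusted p = 0.167). Canx, the membrane lectin chaperone calnexin, read 10.21, 10.90, 10.48, 10.05 and 10.34 in KO1 to KO5 and 10.60, 11.92, 12.10, 10.33 and 10.24 in WT1 to WT5. KO5 lay just above both WT arrays of set 3, and the difference over all arrays was -0.64 ± 0.21 (SE, adjusted p = 0.227). Of the 35 members these had the smallest p for a difference between the tables. The gene-level difference minus the exon-level one was 0.92 for Canx and 0.68 for Hsp90b1, both with a limma adjusted p of 0.872. The test of that difference called 0 of 12485 genes in limma, and 658 (5.27%), with Canx and Hsp90b1 as the members among them, had an unadjusted p under 0.05.

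Calr, the soluble lectin chaperone calreticulin, read 9.79, 10.19, 10.54, 10.01 and 9.74 in KO1 to KO5 and 10.14, 11.22, 11.11, 10.17 and 10.23 in WT1 to WT5. Its difference was -0.52 ± 0.13 (SE, adjusted p = 0.152), with no overlap in any set. Dnajb11, an Hsp40 partner of BiP, read 7.11, 8.39, 7.60, 7.83 and 8.06 in KO1 to KO5 and 7.37, 8.58, 8.72, 8.34 and 8.36 in WT1 to WT5. It too was lower in each KO array than in the WT arrays of its set (-0.48 ± 0.16, adjusted p = 0.231). The -0.26 of Dnajb11 in set 1 rests in part on 1 of its 13 probe sets, at -1.92. The mean of the other 12 was -0.13. Manf, a secreted ER stress protein that binds BiP, read 7.37, 8.26, 8.03, 7.08 and 7.07 in KO1 to KO5 and 7.48, 8.55, 8.56, 7.48 and 7.53 in WT1 to WT5, again without overlap (-0.36 ± 0.11, adjusted p = 0.206). In set 3, where brightness and T cell markers differed little, Pdia6 differed by -0.62, Manf by -0.43 and Dnajb11 by -0.41, against -0.23 for Hsp90b1 and -0.09 for Canx.

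**Figure D1:**
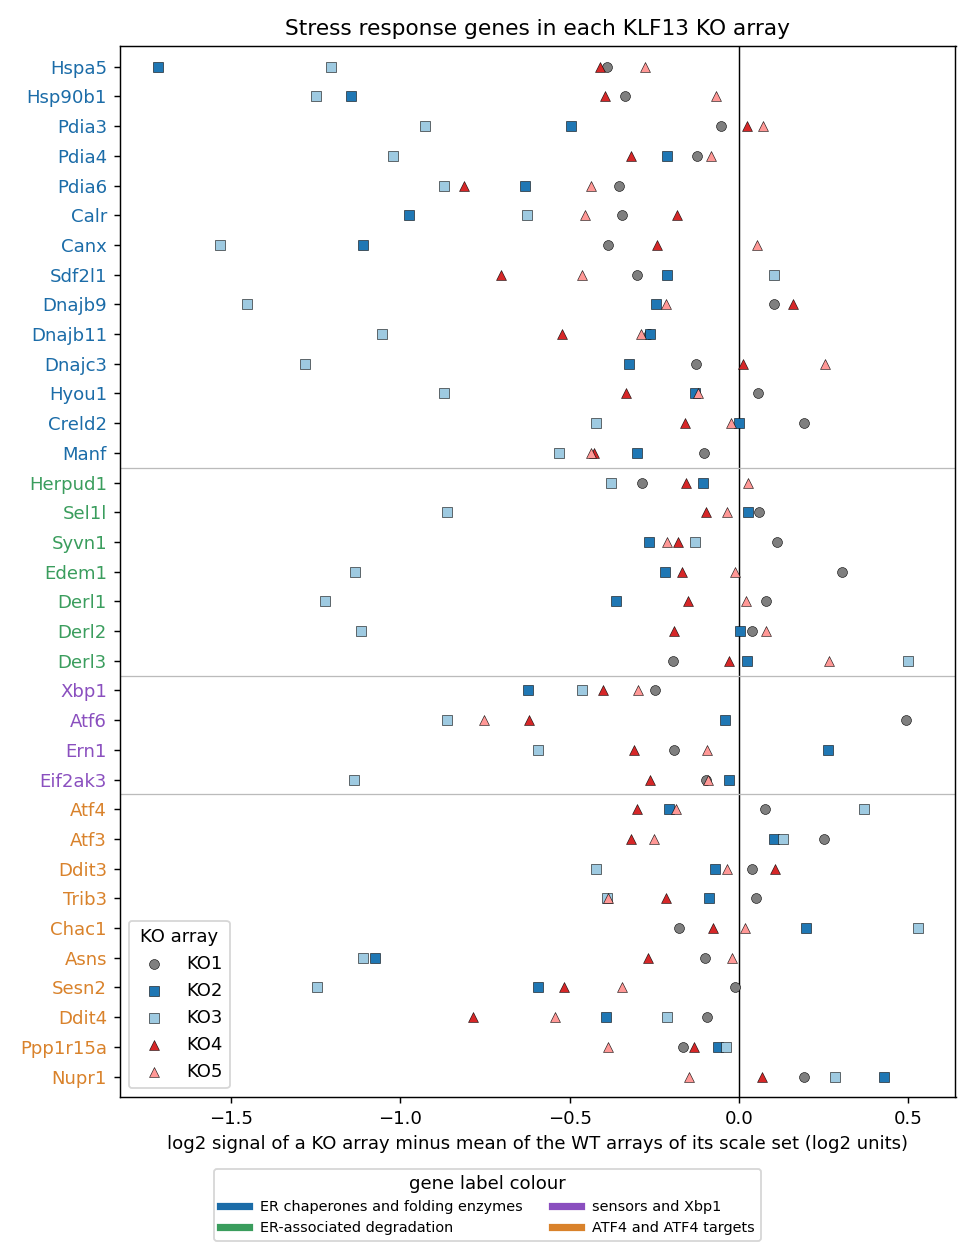
Difference from the mean of the WT arrays of the same scale set, in log2 units, for each of the 35 members in KO1 to KO5, with members grouped by role. The chaperone median is lowest in KO3, at -0.97, where that of the ATF4 group is -0.13.

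The other chaperones ranged from -0.35 to -0.08. Sdf2l1, a stress-induced partner of BiP, differed by -0.31 ± 0.14 over all arrays and by -0.58 ± 0.14 in the gene-level table (2 arrays each, limma adjusted p = 0.0611). Its -0.30 in set 1 rests largely on 1 of 4 probe sets, at -1.05, and the mean of the other 3 was -0.05. Pdia4, Dnajb9 and Dnajc3 differed by -0.35, -0.33 and -0.29 over all arrays, Pdia3 and Hyou1 by -0.28 each, and Creld2 by -0.08, a direction that turned to 0.02 after quantile normalization. Without KO3 the difference was -0.19 for Pdia4, -0.06 for Dnajb9, -0.07 for Dnajc3, -0.14 for Pdia3, -0.13 for Hyou1 and 0.0022 for Creld2, whereas Sdf2l1 was at -0.40. Of the 14 chaperones 7 (Hspa5, Hsp90b1, Canx, Calr, Pdia3, Pdia6 and Dnajc3) belonged to the brightest 5% of genes tested. The 7 chaperones with an ER stress response element in the window had a median difference of -0.62 (from -0.80 to -0.08), and the 5 windows without one gave -0.33 (from -0.48 to -0.28). In the gene-level table these medians were -0.23 and -0.20. The windows also split the genes by brightness. All genes with the element except Creld2 belonged to the brightest 5%, and of the 5 without it only Pdia3 did. The part of brightness in the difference between the medians was not tested.

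No gene of ER-associated degradation passed the threshold or had an unadjusted p under 0.05 over all arrays. The 7 genes had a median difference of -0.18, and in sets 1 to 3 the medians were 0.06, -0.42 and -0.06. Without KO3 the median over all arrays was -0.04, and 0.01 after quantile normalization as well, so that 1 array decides the value. Herpud1, which helps to assemble the degradation machinery, differed by -0.18 ± 0.12 (SE, 5 arrays each). The ubiquitin ligase Syvn1 (HRD1) differed by -0.13 ± 0.11 and its partner Sel1l by -0.18 ± 0.16. Edem1, a mannosidase-like protein that marks glycoproteins for removal, differed by 0.31, -0.68 and -0.09 in sets 1 to 3. The value of set 1 rests on 1 of its 13 probe sets, at 4.26, and the mean of the other 12 was -0.02. A single probe set likewise gave Syvn1 its 0.11 in set 1 (-0.13 over the other 18). Of the derlins, which form part of the exit channel, Derl1 differed by -0.33, Derl2 by -0.24 and Derl3 by 0.11. Without KO3 these were at -0.12, -0.01 and 0.02, with Herpud1 at -0.13, Syvn1 at -0.15, Sel1l at -0.0075 and Edem1 at -0.04. None of the 7 was lower in all 5 KO arrays than in the WT arrays of the set, compared with 10.8% of all genes tested.

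Xbp1, the transcription factor whose mRNA IRE1 splices, read 8.30, 8.53, 8.69, 9.19 and 9.30 in KO1 to KO5 and 8.54, 9.08, 9.23, 9.65 and 9.54 in WT1 to WT5. All KO arrays were below the WT arrays of their set, and the sets gave -0.25, -0.54 and -0.35. The fold was 0.755 (-0.41 ± 0.11, SE, adjusted p = 0.163). All 7 exon-level probe sets of Xbp1 were lower in KO in set 1 and 6 of 7 in set 2, against 52% and 56.4% of all probe sets. These probe sets report the gene as a whole, and the spliced form was not measured.

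Atf6 was the only member past the threshold in the gene-level table, where 339 of 12485 genes were called (2.72%, and 1.99% lower in KO). At an unadjusted p under 0.05 that table held 11 members, all lower in KO, against 10.1% of all genes lower and 16% in either direction. Its signal there was 6.17 and 6.04 in KO4 and KO5 and 6.82 and 6.76 in WT4 and WT5. It fell to 0.621 of the WT level (-0.69 ± 0.12, SE, 2 arrays each, limma adjusted p = 0.0250), and without KO5 the adjusted p was 0.0986. The exon-level table did not show this: Atf6 read 7.37, 8.41 and 7.58 in KO1 to KO3 and 6.88, 8.35 and 8.54 in WT1 to WT3. KO1 was higher than WT1, KO2 lay between WT2 and WT3, and KO3 was lower than both. Of its 16 exon-level probe sets 5 were lower in KO in set 1 and 15 in set 2. The 0.49 of set 1 rests in large part on 1 probe set at 5.38, and the mean of the other 15 was 0.17. Over all arrays Atf6 differed by -0.36, and by -0.22 without KO3. The gene-level minus the exon-level difference was -0.55 (limma adjusted p = 0.872).

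The remaining sensors did not pass the threshold. Ern1 (IRE1) differed by -0.19, -0.16 and -0.20 in sets 1 to 3, and by -0.18 ± 0.15 over all arrays. Eif2ak3 (PERK) differed by -0.10, -0.58 and -0.18, and by -0.32 ± 0.19 over all arrays. In set 1 a single probe set of Eif2ak3 was at 5.68, and the mean of the other 16 was -0.46. Of those 16, 1 stood far out in the other direction, at -3.46. Without KO3 Ern1 differed by -0.06 and Eif2ak3 by -0.11. Neither had an unadjusted p under 0.05.

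**Figure D2:**
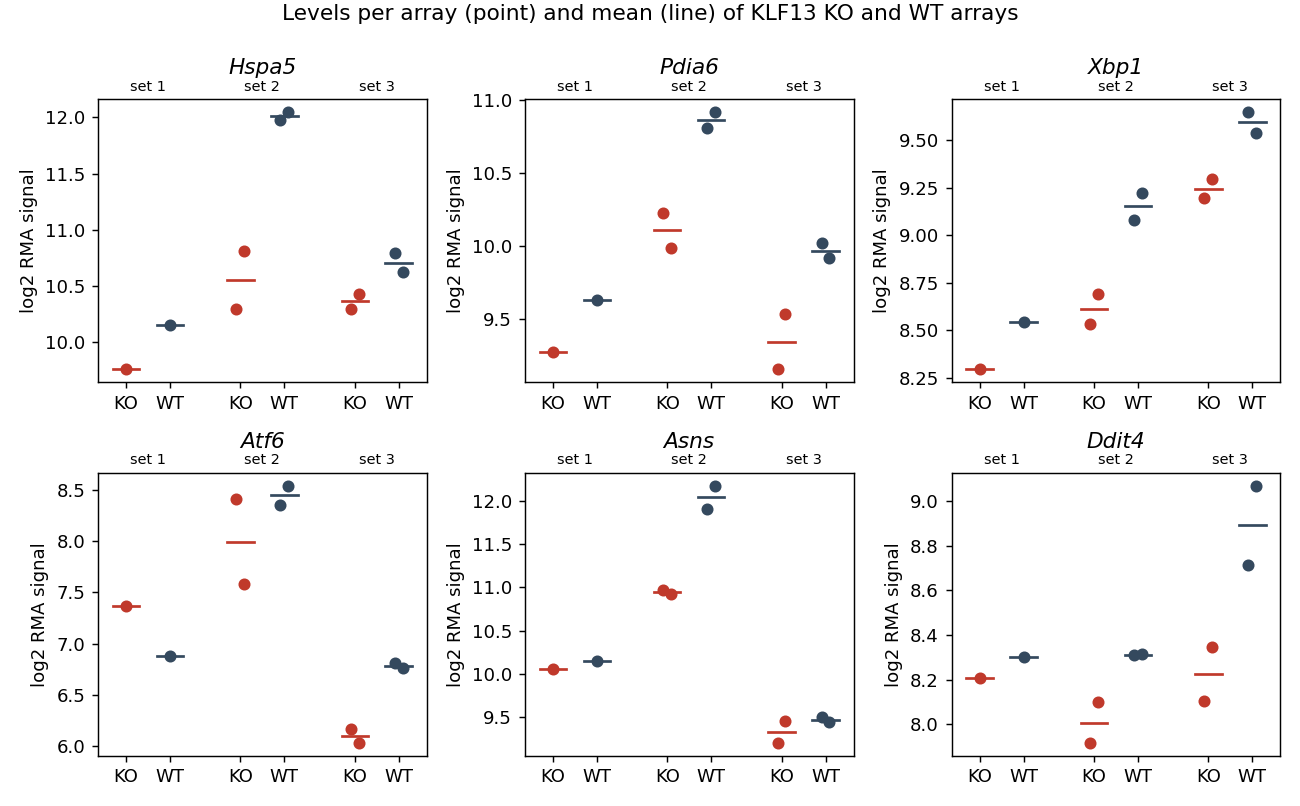
Log2 RMA signal of Hspa5, Pdia6, Xbp1, Atf6, Asns and Ddit4 in every array, KO points left of WT points within each scale set. Hspa5, Pdia6, Xbp1 and Ddit4 have KO points under the WT points of each set, Atf6 has KO1 above WT1, and Asns has KO5 level with WT5.

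Over all arrays members of the ATF4 group did not move as one. Their median difference was -0.12, against -0.10 over all genes tested, and 8 of 10 were below 0 (63.5% of all genes). At an unadjusted p under 0.05 there were 3 of 10 (Sesn2, Ddit4 and Asns), all lower in KO, against 12.8% of all genes lower. In the gene-level table the group had a median of -0.25, against -0.01 over all genes tested. There 9 of 10 differences were below 0, against 52.5% of all genes. Atf4 itself read 7.04, 7.86, 8.44, 7.74 and 7.86 in KO1 to KO5 and 6.97, 7.93, 8.20, 7.99 and 8.09 in WT1 to WT5. KO3 was the highest array of set 2 while KO4 and KO5 were under both WT arrays of set 3, and the difference was -0.05 ± 0.14 (0.06 after quantile normalization). ATF4 is controlled mainly through translation, which these arrays do not measure.

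Ddit3 (CHOP), the pro-apoptotic transcription factor of prolonged ER stress, read 7.86, 8.92, 8.57, 6.71 and 6.56 in KO1 to KO5 and 7.82, 8.93, 9.05, 6.67 and 6.53 in WT1 to WT5. Its means were slightly higher in KO in sets 1 and 3 and lower in set 2, with a difference of -0.08 ± 0.12 (0.05 after quantile normalization). Trib3, a pseudokinase induced by ATF4 and CHOP, read 7.65, 8.92, 8.62, 7.68 and 7.51 in KO1 to KO5 and 7.59, 8.93, 9.08, 7.86 and 7.93 in WT1 to WT5. KO arrays were lower in sets 2 and 3 and KO1 was higher than WT1, at -0.20 ± 0.12 over all arrays.

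The 3 members of this group with low p-values act in amino acid supply and growth control. Asns, asparagine synthetase, read 10.05, 10.96, 10.93, 9.20 and 9.45 in KO1 to KO5 and 10.15, 11.91, 12.17, 9.50 and 9.44 in WT1 to WT5. Its difference was -1.09 in set 2 and -0.10 and -0.14 in sets 1 and 3, where KO5 and WT5 were level (-0.51 ± 0.18 over all arrays, adjusted p = 0.252). Sesn2, an inhibitor of mTORC1 signalling that senses leucine, read 7.39, 8.59, 7.94, 6.37 and 6.54 in KO1 to KO5 and 7.40, 9.24, 9.13, 6.88 and 6.91 in WT1 to WT5. KO1 was just below WT1, and the other KO arrays were clearly below the WT arrays of their set (-0.54 ± 0.17, adjusted p = 0.213).

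Ddit4 (REDD1), another inhibitor of mTORC1 signalling, read 8.21, 7.92, 8.10, 8.10 and 8.35 in KO1 to KO5 and 8.30, 8.31, 8.31, 8.71 and 9.07 in WT1 to WT5. All KO arrays were below the WT arrays of their set, most in set 3 (-0.41 ± 0.13, adjusted p = 0.232). In the gene-level table alone Ddit4 differed by -0.66 ± 0.16 (2 arrays each, adjusted p = 0.0622) and Sesn2 by -0.43 ± 0.13 (adjusted p = 0.123). The rest of the group stayed near 0 over all arrays. Atf3, a stress-induced repressor, differed by -0.02 (0.11 after quantile normalization), Ppp1r15a (GADD34), which restores translation by dephosphorylating eIF2alpha, by -0.16, Chac1, a glutathione-degrading enzyme, by 0.10, and Nupr1, a stress-induced chromatin protein, by 0.17. The 5 members with an ATF4 element in the window had a median difference of -0.02 (from -0.51 to 0.17) and the 5 without one -0.16 (from -0.54 to -0.05).

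Chaperones and the ATF4 group were then set side by side in each array. The median chaperone differed from the WT arrays of its set by -0.19, -0.31, -0.97, -0.33 and -0.17 in KO1 to KO5. The median ATF4 member differed by 0.02, -0.08, -0.13, -0.24 and -0.22. The chaperone median was the lower of the pair in KO1 to KO4, by most in KO3, and the ATF4 median was the lower in KO5. Over the brightest 5% of genes the same medians were -0.19, -0.64, -0.91, -0.12 and -0.04, so the chaperone median in set 2 (-0.73) was close to that of bright genes in general (-0.79). In set 3 both branches were below that level, at -0.23 for chaperones and -0.25 for the ATF4 group, against -0.07. The part of signal brightness in the set 2 values was not tested. After quantile normalization within each table the medians over all sets were -0.26 for chaperones and -0.01 for the ATF4 group, with -0.03 over all genes. The brightest 5% of genes were then at -0.21, close to the chaperones. Without KO3 and without that step, chaperones were at -0.32 and the ATF4 group at -0.16, with -0.04 over all genes. The sensors with Xbp1 were at -0.16 without KO3, beside -0.34 with it. The ATF4 median depends on which targets are counted. A list of 27 further ATF4 targets had a median of -0.35 over all arrays, level with the chaperones, -0.27 without KO3 and -0.21 after quantile normalization. The 2 ATF4 lists also differ in brightness. Of the 27, 9 belonged to the brightest 5% of genes, whose median over all arrays was -0.39, beside 1 of the 10 in the ATF4 group. The part of brightness in this gap was not tested.

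**Figure D3:**
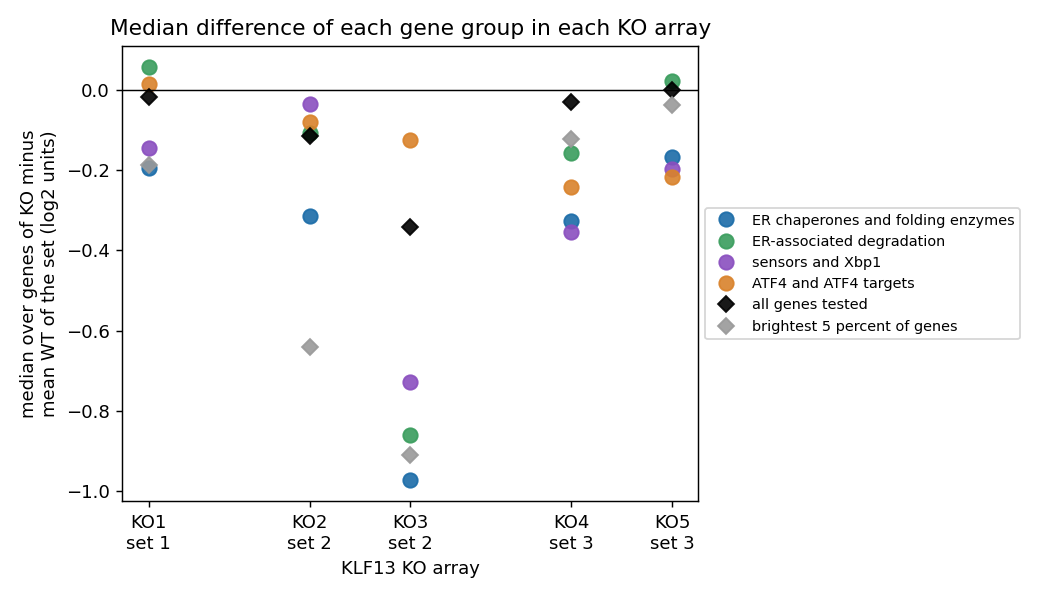
Median difference from the WT arrays of the same scale set, in log2 units, for each member group, for all genes tested and for the brightest 5% of genes, in KO1 to KO5. The chaperone median is -0.97 in KO3, beside -0.91 for bright genes, and -0.17 in KO5, beside -0.04.

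Taking each array by itself, 9 of the 35 members were lower in all 5 KO arrays than in the WT arrays of the set, where 10.8% of all genes were. They were Hspa5, Hsp90b1, Pdia6, Calr, Dnajb11, Manf, Xbp1, Sesn2 and Ddit4. By the mean difference 17 members were below 0 in each of the 3 sets, 9 of them chaperones, against 24.8% of all genes. No member was higher in all 5, where 1.63% of all genes were. Within set 3, 19 of 35 members had both KO arrays below both WT arrays (26% of all genes), 8 of them chaperones and 6 of the ATF4 group. None had both above (20.3% of all genes).

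Without KO3 the same fit called 362 of 12485 genes (2.90%, and 2.07% lower in KO), and 3 members were among them, all lower in KO. Pdia6 fell by 0.56 ± 0.10 (limma adjusted p = 0.0115), Xbp1 by 0.41 ± 0.09 (0.0354) and Calr by 0.53 ± 0.12 (0.0391), each over 4 KO and 5 WT arrays. Hspa5 differed by -0.78 with an adjusted p of 0.0577. Array weights gave KO3 a weight of 0.0559, KO2 one of 0.434 and WT2 one of 5.27, with the other arrays at 0.967 to 1.58. The weighted fit thus leaned on WT2 in set 2. It called 504 genes (4.04%, and 2.88% lower in KO) with 5 members (Pdia6, Hspa5, Calr, Ddit4 and Xbp1), all lower. After quantile normalization as well as the omission of KO3, an alternative chosen after seeing the data, 0 members passed in limma (294 of 12484 genes did, 2.36%) and 11 had an unadjusted p under 0.05, all lower in KO, against 10.9% of all genes lower. The adjusted p was then 0.0652 for Pdia6, 0.0588 for Xbp1 and 0.0849 for Calr. In the exon-level table alone limma called 0 genes (1019 at an unadjusted p under 0.05, 8.16%, 7 of them members). Without KO3 that table gave 426 calls (3.41%, and 2.53% lower in KO), with 5 chaperones among them, all lower. Those were Hspa5 (-1.15, adjusted p = 0.0203), Canx (-0.80, 0.0212), Hsp90b1 (-0.80, 0.0241), Calr (-0.70, 0.0265) and Pdia6 (-0.51, 0.0477). All 5 belonged to the brightest 5% of genes. Set 2 then rests on KO2 as its only KO array, where the median of those bright genes was -0.64. The part of brightness in these calls was not tested.

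**Figure D4:**
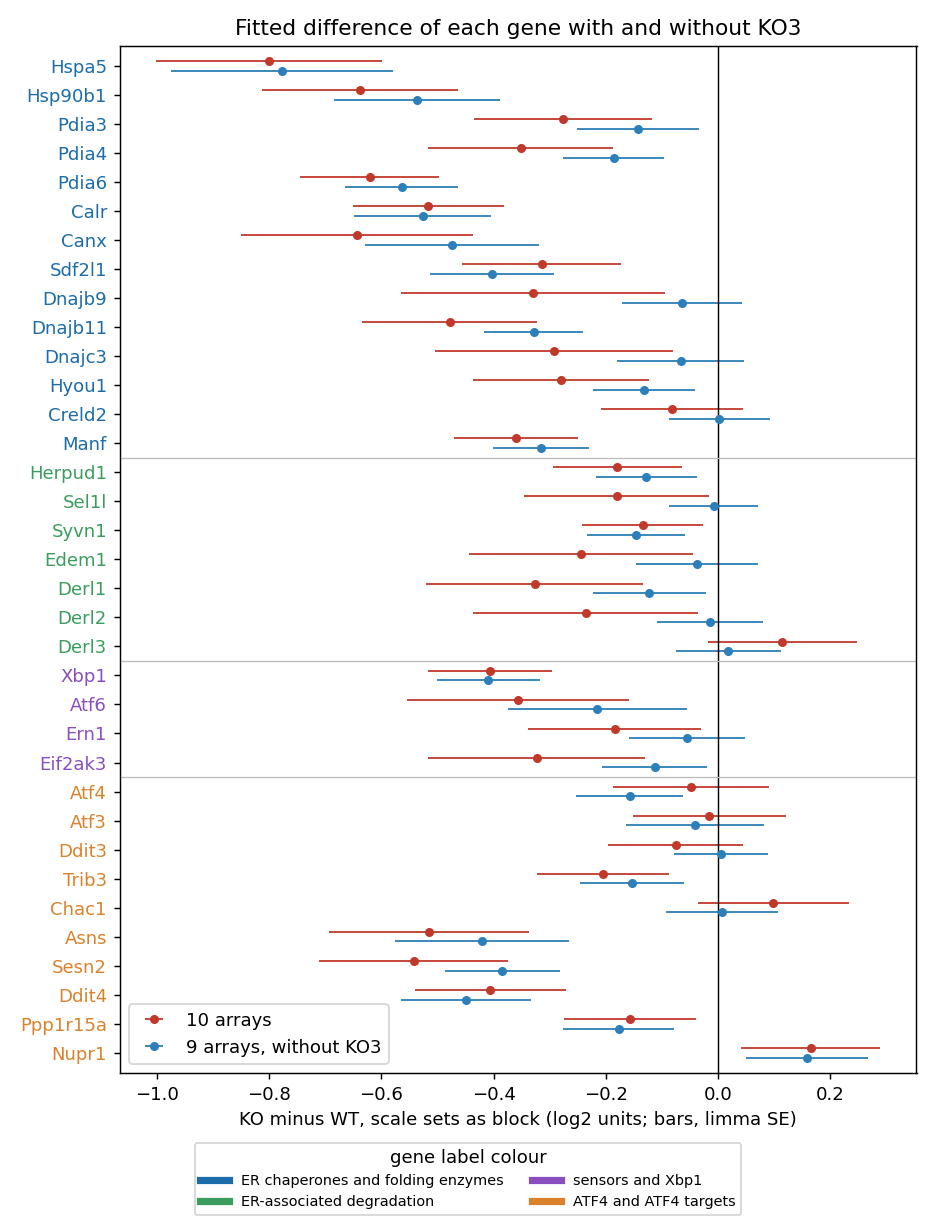
Log2 difference, KO minus WT, with its standard error for each member, over all 10 arrays and over the 9 arrays without KO3. Pdia6, Xbp1 and Calr pass the threshold without KO3 while no member does over 10 arrays.

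Other genes of the pathway were read from lists that hold none of the 35. Among 45 tested genes of ER folding and secretion 1 was called, Ero1a, the oxidase that passes disulfide bonds on to protein disulfide isomerases and a known target of the hypoxia response. It read 9.71, 10.30, 9.46, 9.08 and 9.35 in KO1 to KO5 and 10.27, 11.19, 11.21, 10.13 and 10.11 in WT1 to WT5, below in every KO array. Ero1a fell to 0.499 of the WT level (SE of 0.17 log2 units, 5 arrays each, limma adjusted p = 0.0320) and by 0.91 ± 0.14 in the gene-level table (adjusted p = 0.0129). When single arrays were left out its adjusted p over the rest ranged from 7e-04 to 0.139 and stayed under the threshold only without KO2 and without KO3, whereas in the gene-level table Ero1a passed in each fit tried.

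Of the other lists none had a member past the threshold over all arrays. Among 27 further ATF4 targets, which hold amino acid transporters, enzymes of serine synthesis and tRNA synthetases, 24 differences were below 0, against 63.5% of all genes tested. Psat1, of serine synthesis, had the smallest p (-0.61, limma adjusted p = 0.0539). It passed without KO3 (-0.54, adjusted p = 0.00739), also after quantile normalization (-0.40, adjusted p = 0.0170). In all, 14 of the 27 were lower in all 5 KO arrays, against 10.8% of all genes tested. The 17 kinases of eIF2alpha and other regulators had a median of -0.18 (smallest p for Ppp1cc, a phosphatase subunit, -0.55 ± 0.17, adjusted p = 0.205), and 13 heat shock genes of the cytosol and mitochondria had one of -0.35, close to the -0.39 of bright genes.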

How the data were processed

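RNA of activated CD3+ T cells was measured on Affymetrix arrays in 10 samples, 5 per genotype. Each deposited value is a log2 signal of a probe set, which the authors computed with RMA per the submitters' processing notes. Version, options and genome build of that step are not stated there. An exon-level table (241576 probe sets) and a gene-level table (35556) had been normalized separately. Probe sets that name exactly 1 gene in the platform annotation were kept, with symbols updated through RefSeq (GRCm38.p6). A gene's value was the mean of its exon-level probe sets and the brightest gene-level probe set, and genes at or above the 30th percentile in both tables were tested.

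KO minus WT was fitted in limma 3.58.1 (R 4.3.3), 2-sided, with the 3 scale sets as block and Benjamini-Hochberg adjustment over all 12485 genes, threshold 0.05. Fits were tested on simulated data. Per-array values are printed for members past the threshold in any fit, filled up to 12 by smallest p, and for Hspa5, Xbp1, Atf4, Ddit3, Asns, Trib3 and Ddit4; of other lists, up to 4 passing genes or the smallest p are named. Alternatives were other scalings, summaries, filters, blocks, array weights and the omission of single arrays or sets. The members and lists were chosen with earlier results of these data known. The single probe sets named for Dnajb11, Sdf2l1, Edem1, Syvn1, Atf6 and Eif2ak3 were picked after their values were seen. The same replicate number was not treated as a pairing (correlation of deviations -0.42 for replicates 2 and 3, -0.24 for replicates 4 and 5). With 2 arrays per genotype in a set, these correlations cannot decide whether the numbers mark a shared batch. The labels name separate mice, and the number of arrays limits the precision.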

Additional observations from a re-analysis of the deposited data

Results flagged for a closer look

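Values are log2 signals after removal of the mean of the scale set. In 5 of 70 groups (each member in each genotype) 1 array stood apart from the other 4. The cutoff gives about 1 in 20 for independent values of equal spread. These values are not such, since the KO and WT arrays of a set share the mean removed, so that rate is only a rough guide. In KO3, Dnajc3 was at -0.88 and the other KO arrays at -0.06 to 0.19. Derl1 in KO3 was at -0.83, with the other KO arrays at -0.12 to 0.05. Chac1 in KO3 was at 0.35, with the other KO arrays at -0.09 to 0.03. Manf was at 0.0514 in WT1 and at 0.19 to 0.24 in the other WT arrays. Ddit4 was at 0.51 in WT5 and at 0.05 to 0.16 in the other WT arrays.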

How the results depend on the processing

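Over all 10 arrays, 73 genes were called as reported. The count was 31 with the median of probe sets, 39 with that and quantile normalization, 504 with array weights, 4 with the table as block in place of the scale sets, 28 without scale set 1, 254 without scale set 2 and 294 after quantile normalization without KO3. Leaving out 1 array gave 12 to 362 genes and 0 to 3 members. Where this left a lone array of a genotype in set 2 or 3, it was assumed to vary like the others. Without WT1 or KO1 the array left in set 1 adds nothing to the difference, so these fits equal that without scale set 1. Members called numbered 1 after subtraction of array medians (Pdia6) and 5 with array weights, whose estimation stopped before convergence in some fits. In the gene-level table trend and robust settings called 517 genes. Members called there numbered 4 with them, 4 after subtraction of array medians and 2 with a filter at the 50th percentile, and leaving out 1 array gave 193 to 529 genes and 1 to 2 members. The exon-level table gave 16 genes with array weights and 0 to 426 genes, 0 to 5 of them members, without 1 array. The difference between the tables gave 13 genes with array weights and 0 to 121 without 1 array.

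With the replicate number as block, 23 genes were called over 10 arrays, 660 (4 of them members) in the gene-level table and 48 in the exon-level table. The crossed numbers, added after seeing the data, gave 938 genes with 6 members and 10 genes in the last pair of tables.

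Of 1028 values of members under the alternatives, 969 kept their direction and side of the threshold, 28 newly passed, all lower in KO, and 30 changed direction, all of members that were not called. After quantile normalization Creld2 was at 0.022, Atf4 at 0.059, Atf3 at 0.11 and Ddit3 at 0.047. With the median of probe sets as well Atf3 was at 0.0057, and after median subtraction at 0.0087. With array weights Creld2 was at 0.0096, Ddit3 at 0.023 and Chac1 at -0.043. Without scale set 2 Pdia3 was at 0.015, Dnajb9 at 0.017, Dnajc3 at 0.048, Creld2 at 0.0033, Edem1 at 0.043, Ddit3 at 0.038 and Chac1 at -0.079. After quantile normalization without KO3 the values were 0.026 for Pdia3, 0.012 for Dnajc3, 0.049 for Creld2, 0.061 for Sel1l, 0.052 for Edem1, 0.023 for Derl2, 0.026 for Atf3 and 0.065 for Ddit3. Leaving out 1 array moved Creld2 between -0.15 and 0.0022, Atf4 between -0.16 and 0.020, Atf3 between -0.083 and 0.098 and Ddit3 between -0.11 and 0.0048. The 125 group medians moved by less than the SD between KO arrays, a spread that KO3 itself widens. These medians and the 1028 values include settings that cannot change a difference. They are the trend and robust settings, the other blocks and no filter, which all gave -0.29 over all members. The fits without WT1, without KO1 and without scale set 1 are the same fit, counted each time. Without KO3 the median was -0.15 over all members (-0.29 with it), -0.04 for degradation genes (-0.18) and -0.16 for sensors (-0.34). Quantile normalization moved the median of all genes in the exon-level table to -0.04, beside -0.15 as deposited. The cause of these changes was not tested.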

Other observations

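The exon-level table holds 395 probe sets of the 35 members. Of these 248 were lower in KO in set 1 and 314 in set 2, against 52% and 56.4% of all 212097 probe sets with 1 gene, and 203 were lower in both, against 29.9%. Probe sets of a gene share their RNA and are not independent. The 26 probe sets of Dnajc3 form pairs with identical values, and the totals count both of each pair. Counts varied within both branches. Among chaperones, Hsp90b1 had 16 of 19 probe sets lower in both sets, Canx 14 of 16 and Pdia6 11 of 13. Creld2 had only 2 of 11, Dnajb9 1 of 3 and Sdf2l1 0 of 4. In the ATF4 group the count was 7 of 12 in Asns, 6 of 10 in Sesn2 and 5 of 8 in Trib3. In Atf4 it was 1 of 5, and in Chac1 0 of 4.

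Hsp90aa1, the inducible cytosolic Hsp90, had the smallest p of the 13 heat shock genes (-0.66 ± 0.18, SE, 5 arrays each, limma adjusted p = 0.168). None of the 13 had an unadjusted p under 0.05 in the gene-level table. There 8 of the 27 further ATF4 targets did, all lower in KO, as did 16% of all genes in either direction (10.1% lower in KO). Among markers of other cell types none passed over all arrays. Their smallest p-values were those of Ighm for B and plasma cells (-0.43, limma adjusted p = 0.282), Csf1r for myeloid cells (0.20, 0.442), Eomes for NK cells (0.02, 0.937) and Epor for erythroid cells (0.28, 0.311).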
